A study of Mus musculus with 18 samples.

Results

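Ccl6, Ccl8, Ccl9, Ccl11, Ccl17, Ccl22 and Ccl24 encode CC chemokines, small secreted proteins that attract leukocytes through G protein-coupled receptors. They were chosen by gene symbol from the deposited count table, where each had a single row, so that they made up 7 of 53465 genes. All 18 libraries were used, in 6 groups of 3 mice. Adult female C57BL/6J mice received a contusion of the thoracic spinal cord. At 48 h after injury, PBS, recombinant IL-13 (rIL-13) or recombinant IL-4 (rIL-4) was injected into the cord, and the cells were taken 24 h later. Microglia, the resident phagocytes of the cord, and macrophages, which enter it from blood after injury, were sorted from the same cords by CD45, CD11b and a macrophage surface marker. Each of the 9 mice therefore gave 1 microglia and 1 macrophage library, from mice 1, 2 and 3 with PBS, mice 5, 6 and 7 with rIL-13 and mice 8, 9 and 10 with rIL-4. All groups share the injury and the injection, and no uninjured cord was analysed here.

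IL-4 and IL-13 are type 2 cytokines that signal through receptors sharing the IL-4 receptor alpha chain and activate the transcription factor STAT6. In macrophages, they induce the programme known as alternative activation, of which several of these chemokines are part. CCL11 and CCL24 are eotaxins, which attract eosinophils through CCR3. CCL17 and CCL22 attract T helper and regulatory T cells through CCR4, mouse CCL8 acts on CCR8, and CCL6 and CCL9 are rodent chemokines that act on CCR1.

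Each library held between 35961305 and 45849829 counts. The check of cell types by marker lists followed the labels in part. In PBS mice, 9 of 10 microglia markers were higher in microglia than in macrophages, against 15.7% of all genes tested, and 7 of 10 monocyte and macrophage markers were lower, against 9.9%. However, all 10 fibroblast and pericyte markers and all 10 endothelial markers were also higher in the microglia libraries. Mitochondrial protein-coding transcripts took from 2.18% to 3.01% of counts in PBS microglia. The range was 3.28% to 3.53% in rIL-13 microglia and 6.35% to 12.2% in rIL-4 microglia, where mouse 8 was highest. In macrophages they took at most 1.41%, again in mouse 8. The microglia markers summed to between 7277 and 12637 CPM (counts scaled to library size after TMM normalization) in PBS microglia, to between 3940 and 8038 CPM in rIL-13 microglia and to between 3083 and 4903 CPM in rIL-4 microglia, where 5 of the 10 were called lower. In macrophages all 10 were called lower after rIL-4 and 3 after rIL-13. Over all genes, 345 of 15566 with rIL-4 and 57 with rIL-13 were called against PBS in either direction in microglia. In macrophages it was 1900 of 13606 and 570. Of 10 markers of border-associated macrophages, 4 were called higher with rIL-4 and 1 with rIL-13 in microglia. In macrophages, 4 were called higher and 3 lower with rIL-4 and 4 higher with rIL-13, and their sum went from between 1653 and 1998 CPM with PBS to between 2920 and 4436 CPM with rIL-13 and between 2106 and 3659 CPM with rIL-4. Mrc1 and Clec10a, which are also alternative activation genes, were among those called higher in macrophages with both cytokines. In rIL-4 microglia, Mrc1 was among them as well. The part of these values in the results was not tested, and in these sorted pools fewer cells of a type and less RNA per cell cannot be told apart.

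The 7 genes lie on 3 chromosomes of GRCm38. Ccl11 (ENSMUSG00000020676.2, chr11:82057823-82062955, plus strand) and Ccl8 (ENSMUSG00000009185.2, chr11:82115185-82116799, plus strand) are 52229 bases apart, with Ccl12 between them. Ccl9 (ENSMUSG00000019122.8, chr11:83572919-83578636, minus strand) and Ccl6 (ENSMUSG00000018927.3, chr11:83587882-83593087, minus strand) are direct neighbours 9245 bases apart. Ccl22 (ENSMUSG00000031779.3, chr8:94745590-94751699, plus strand) and Ccl17 (ENSMUSG00000031780.2, chr8:94810453-94812036, plus strand) are 58753 bases apart, with Cx3cl1 between them. Ccl24 (ENSMUSG00000004814.10, chr5:135569937-135573049, minus strand) lies next to Ccl26, which had no count in any library. No stretch of 76 bases, the read length, in the annotated transcripts of any of the 7 genes occurred in a transcript of another gene on either strand. E230016K23Rik overlaps Ccl6 on the opposite strand, and the libraries keep no strand. It had between 0 and 428 counts per library, against between 5088 and 171441 for Ccl6.

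The RefSeq promoter table for GRCm38.p6 held 5 of the 7 genes, Ccl6, Ccl8, Ccl9, Ccl17 and Ccl22. The 250 bases before each start site were searched on both strands for TTCNNNNGAA, the spacing that STAT6 is known to prefer, for TTCNNNGAA, the spacing of other STAT factors, and for the TATA box letters TATAAA. These letters were found in 5.85%, 7.02% and 12.4% of 32851 promoters, respectively. Ccl17 held TTCTCTGGAA with its first base at -154 and TTCTTTGAA at -99 from the start site. TATAAA was found in Ccl8 at -32 and in Ccl9 at -92, and its reverse complement in Ccl9 at -94, which overlaps the former, and at -224. Ccl6 and Ccl22 held none of the 3. A match is a description of letters and not of binding. The sequences with a match, chr8:94810203-94810452 for Ccl17 (plus strand), chr11:82114935-82115184 for Ccl8 (plus strand) and chr11:83578637-83578886 for Ccl9 (minus strand), are shown so that the matches, in capitals, can be read in place.
Ccl17: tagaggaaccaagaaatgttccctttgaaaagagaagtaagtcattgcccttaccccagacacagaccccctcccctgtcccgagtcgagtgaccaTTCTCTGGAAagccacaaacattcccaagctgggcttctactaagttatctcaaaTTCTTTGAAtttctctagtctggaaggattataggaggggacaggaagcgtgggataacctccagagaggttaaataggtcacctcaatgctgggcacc
Ccl8: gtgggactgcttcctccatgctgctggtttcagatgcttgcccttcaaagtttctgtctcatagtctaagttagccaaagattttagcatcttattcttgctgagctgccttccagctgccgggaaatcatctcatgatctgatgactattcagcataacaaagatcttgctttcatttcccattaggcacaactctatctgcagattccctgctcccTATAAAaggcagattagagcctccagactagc
Ccl9: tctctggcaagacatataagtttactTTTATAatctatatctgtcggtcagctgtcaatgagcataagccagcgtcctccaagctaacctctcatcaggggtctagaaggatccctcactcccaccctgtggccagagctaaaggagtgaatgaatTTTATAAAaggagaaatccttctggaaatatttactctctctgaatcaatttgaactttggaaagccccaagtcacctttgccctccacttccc

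The first question was which of these chemokines responded to each cytokine in each cell type. With rIL-4, Ccl24, Ccl8, Ccl6 and Ccl9 rose in both cell types, and Ccl22 rose in macrophages. With rIL-13, Ccl24, Ccl8 and Ccl6 rose in both cell types, and Ccl9 in macrophages. Ccl24 and Ccl8 had the largest folds among the genes called, and Ccl6 and Ccl9 were the most abundant of the 7 with PBS. In edgeR's quasi-likelihood test with Benjamini-Hochberg adjustment over all genes, at an adjusted p below 0.05, 4 of 5 members were higher in rIL-4 than in PBS microglia, against 1.33% of 15566 genes. For rIL-13 microglia it was 3 of 5, against 0.283%. By range alone, every cytokine library lay above every PBS library for 4 of these 5 members with either cytokine, against 10.9% of genes for rIL-4 and 6.99% for rIL-13. In macrophages, 5 of 5 were higher with rIL-4, against 6.77% of 13606 genes, and 4 of 5 with rIL-13, against 2.53%. The same counts of members had ranges above PBS, against 17.2% and 12.5% of genes. None was lower. The filter on low counts left out Ccl17 in microglia and Ccl11 in macrophages. Ccl22 in microglia and Ccl17 in macrophages passed it through their cytokine libraries alone and are not in these counts. The 2 comparisons within a cell type share their PBS libraries.

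**Figure D1:**
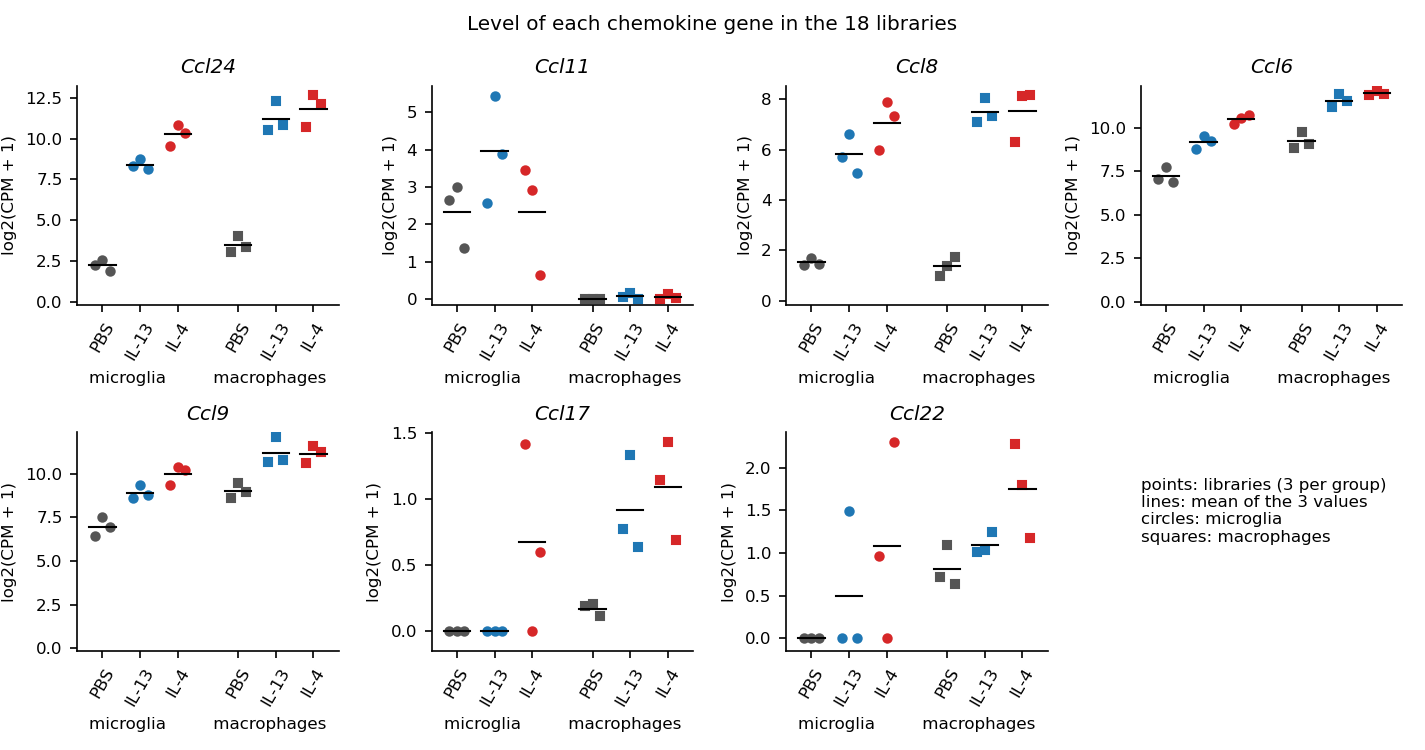
Level of each gene in every library, as log2(CPM + 1) on the vertical axis, by treatment and cell type; circles are microglia, squares are macrophages, and lines are means of 3 libraries. For Ccl24, Ccl8, Ccl6 and Ccl9, every cytokine library lies above every PBS library of its cell type, whereas Ccl11 is found almost only in microglia libraries and Ccl17 and Ccl22 stay below 4 CPM.

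Ccl24, an eotaxin, was at a moderate level with PBS, above most genes with a count. In PBS microglia it had 3.91, 5.05 and 2.76 CPM in mice 1, 2 and 3. In rIL-13 microglia it had 315, 424 and 278 CPM in mice 5, 6 and 7, and in rIL-4 microglia 750, 1840 and 1294 CPM in mice 8, 9 and 10. The 3 groups did not overlap. Thus the mean rose 86.8-fold with rIL-13, with a log2 fold change of 6.44 ± 0.42 (SE, n = 3 mice per group) and an adjusted p of 3.91e-04 in edgeR. With rIL-4 it rose 332-fold, with a log2 fold change of 8.40 ± 0.45 and an adjusted p of 5.74e-05. In both comparisons Ccl24 ranked 2 of 15566 genes by p.

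In macrophages, Ccl24 had 7.49, 15.4 and 9.29 CPM with PBS. It had 1447, 4947 and 1815 CPM with rIL-13 and 1698, 6529 and 4345 CPM with rIL-4. Every cytokine library lay far above every PBS library, and the rIL-13 and rIL-4 libraries overlapped. The log2 fold change was 8.00 ± 0.72 with rIL-13 (adjusted p = 2.79e-04, edgeR) and 8.61 ± 0.74 with rIL-4 (adjusted p = 9.82e-05). Mouse 6 was the highest of the rIL-13 mice, and without it the log2 fold change was 7.27.

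Ccl8, the ligand of CCR8, was near 2 CPM with PBS in both cell types. Microglia had 1.66, 2.26 and 1.77 CPM with PBS, 51.7, 97.4 and 33.1 CPM with rIL-13, and 62.7, 237 and 159 CPM with rIL-4. Macrophages had 0.961, 1.59 and 2.34 CPM with PBS, 134, 265 and 158 CPM with rIL-13, and 77.5, 276 and 286 CPM with rIL-4. In each cell type, both cytokine groups lay above the PBS group and overlapped each other. In microglia, the log2 fold change was 5.00 ± 0.58 with rIL-13 (adjusted p = 0.00778, edgeR) and 6.35 ± 0.61 with rIL-4 (adjusted p = 0.00127). In macrophages it was 6.84 ± 0.59 with rIL-13 (adjusted p = 2.16e-04, edgeR) and 7.02 ± 0.59 with rIL-4 (adjusted p = 9.43e-05). These correspond to ratios of means of 32.0 and 80.5 in microglia and of 114 and 131 in macrophages.

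Ccl12, which lies between Ccl11 and Ccl8, did not pass the test in any of the 4 comparisons with PBS. Its log2 fold change was 0.65 ± 0.46 with rIL-4 in microglia (adjusted p = 0.588, edgeR) and 0.81 ± 0.79 in macrophages (adjusted p = 0.563).

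Ccl6 and Ccl9, the neighbouring ligands of CCR1, were the most abundant of the 7 genes with PBS. In PBS microglia Ccl6 had 134, 214 and 117 CPM, in rIL-13 microglia 440, 741 and 604 CPM and in rIL-4 microglia 1189, 1479 and 1722 CPM. In macrophages it had 461, 861 and 524 CPM with PBS, 2328, 3879 and 2910 CPM with rIL-13 and 3806, 4474 and 3952 CPM with rIL-4. The Ccl6 groups of microglia did not overlap, and in macrophages both cytokine groups lay above PBS. The log2 fold change in microglia was 1.95 ± 0.27 with rIL-13 (adjusted p = 0.0179, edgeR) and 3.26 ± 0.29 with rIL-4 (adjusted p = 0.00101). In macrophages it was 2.31 ± 0.26 with rIL-13 (adjusted p = 0.00142, edgeR) and 2.73 ± 0.27 with rIL-4 (adjusted p = 1.99e-04).

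Ccl9 followed a similar course. Microglia had 84.2, 179 and 120 CPM with PBS, 380, 643 and 444 CPM with rIL-13 and 643, 1328 and 1188 CPM with rIL-4. Macrophages had 382, 714 and 482 CPM with PBS, 1604, 4275 and 1731 CPM with rIL-13 and 1531, 3103 and 2381 CPM with rIL-4. Again every cytokine library lay above every PBS library of its cell type. In microglia, the log2 fold change of 3.07 ± 0.37 with rIL-4 passed the test (adjusted p = 0.00420, edgeR), whereas that of 1.94 ± 0.35 with rIL-13 did not (adjusted p = 0.0712). The latter passed with DESeq2, without a filter, with a filter of 10 counts in every library and in the fit of all 18 libraries. In macrophages, the log2 fold change was 2.27 ± 0.41 with rIL-13 (adjusted p = 0.0133, edgeR) and 2.15 ± 0.41 with rIL-4 (adjusted p = 0.00684). Without mouse 6, the rIL-13 value was 1.68.

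The rIL-13 counts rested on single PBS mice. In microglia, the number of members higher with rIL-13 was 1 without PBS mouse 1 or without PBS mouse 3, when Ccl24 alone passed. In microglia, the Ccl6 call was also lost without rIL-13 mouse 7, the Ccl8 call without PBS mouse 2, and the Ccl6 call when the 6 libraries compared were fitted alone (adjusted p = 0.0624). In macrophages, the number was 3 without PBS mouse 1 or PBS mouse 3, when Ccl9 no longer passed.

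Markers of monocytes and macrophages moved with the cytokines. The 10 markers summed to between 844 and 1263 CPM in PBS microglia, to between 5505 and 7855 CPM in rIL-13 microglia and to between 12420 and 22235 CPM in rIL-4 microglia. The 1 marker called higher in either comparison was Chil3, which is also an alternative activation gene, as is Fn1. Without these 2 genes, a reduction made after the values were seen, the other 8 summed to between 154 and 340 CPM in PBS, between 151 and 181 CPM in rIL-13 and between 140 and 205 CPM in rIL-4 microglia. In macrophages, these 8 summed to between 1734 and 2189 CPM with PBS, between 652 and 1982 CPM with rIL-13 and between 540 and 1159 CPM with rIL-4, so that the rIL-4 libraries lay below PBS. The part of these values in the chemokine levels was not tested.

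**Figure D2:**
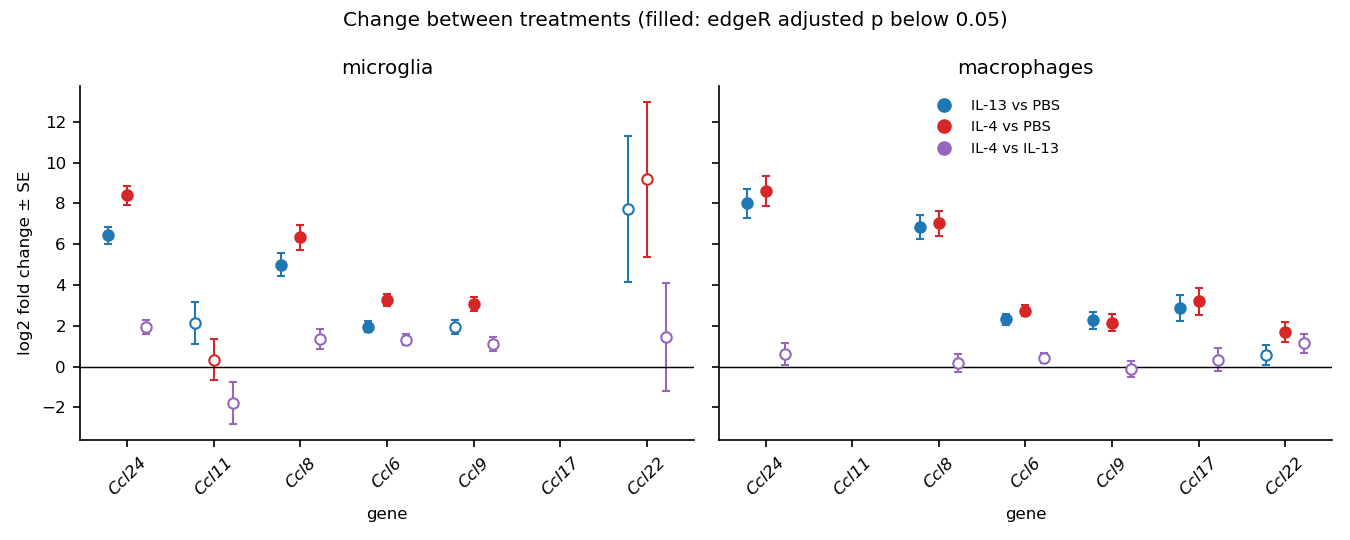
Log2 fold change ± SE (vertical axis) of each gene between treatments in microglia (left) and macrophages (right), from edgeR's fit of the 9 libraries of each cell type; filled points had an adjusted p below 0.05. Ccl24 and Ccl8 rose by at least 5.00 on the log2 scale against PBS, no purple point (rIL-4 against rIL-13) is filled, and the fitted values of Ccl22 in microglia and Ccl17 in macrophages belong to genes that passed the filter through their cytokine libraries alone.

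The ligands of CCR4, Ccl17 and Ccl22, were at low levels in all groups. Ccl17 had 0 counts in all PBS and rIL-13 microglia libraries. With rIL-4, it had 67 counts in mouse 8, 0 in mouse 9 and 19 in mouse 10. A mean of 0.730 ± 0.857 CPM (SD, n = 3) in rIL-4 microglia was thus at least 10.6-fold above the level of 3 counts per library in PBS microglia. No test was made of it, because of the filter. Without mouse 8, the mean was 0.258 CPM and the bound at least 3.74-fold.

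In macrophages, Ccl17 was found in every library. It had 5, 5 and 3 counts with PBS, 21, 52 and 20 counts with rIL-13 and 51, 65 and 24 counts with rIL-4. The cytokine groups did not overlap with PBS. The mean was 0.126 ± 0.037 CPM with PBS, 0.929 ± 0.52 CPM with rIL-13 and 1.17 ± 0.54 CPM with rIL-4 (SD, n = 3). Because the gene passed the filter through the cytokine libraries alone, these values are given without a test.

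Ccl22 had 0 counts in the 3 PBS microglia libraries. It had 86 counts in mouse 6 alone of the rIL-13 microglia, and 38, 0 and 144 counts in the rIL-4 microglia of mice 8, 9 and 10. Means were at least 8.70-fold above 3 counts per library with rIL-13 and at least 23.5-fold with rIL-4 (at least 6.88-fold without mouse 10), but the groups overlapped. No test is given, because Ccl22 passed the filter in microglia through its cytokine libraries alone. Without mouse 6, no rIL-13 microglia library had a count of Ccl22.

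In macrophages, Ccl22 had 0.650, 1.13 and 0.556 CPM with PBS, 1.01, 1.05 and 1.36 CPM with rIL-13 and 3.83, 2.48 and 1.25 CPM with rIL-4. The rIL-4 libraries lay above PBS, and the rIL-13 libraries overlapped with PBS. The log2 fold change was 1.70 ± 0.48 with rIL-4 (adjusted p = 0.0400, edgeR) and 0.57 ± 0.48 with rIL-13 (adjusted p = 0.607). The rIL-4 call was lost without rIL-4 mouse 8 or 9 and without PBS mouse 1 or 3 (adjusted p up to 0.141). It was also lost with all 18 libraries in the fit (adjusted p = 0.780) and with the 6 libraries compared alone (adjusted p = 0.0591).

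Dendritic cells, which present antigen to T cells, are known to make CCL17 and CCL22. The sum of 10 dendritic cell markers was between 153 and 420 CPM in PBS, 54.99 and 255 CPM in rIL-13 and 113 and 199 CPM in rIL-4 microglia, and between 29.2 and 68.4 CPM, 41.0 and 60.7 CPM, and 47.9 and 76.6 CPM in macrophages. Siglech, which microglia express too, made up much of these sums in microglia and in PBS macrophages, but had at most 2.35 CPM in rIL-4 macrophages. Without it, the sum of the other 9 was between 58.4 and 103 CPM, 34.2 and 61.7 CPM, and 52.5 and 88.3 CPM in microglia, with overlap of each cytokine group with PBS. In macrophages it was between 15.9 and 34.8 CPM with PBS, 32.5 and 54.8 CPM with rIL-13 and 45.6 and 76.2 CPM with rIL-4, so that rIL-4 lay above PBS in all libraries. This separation rested in large part on Il4i1, an amino acid oxidase gene. In macrophages Il4i1 had between 0.339 and 0.427 CPM with PBS, 10.2, 21.2 and 14.1 CPM with rIL-13 and 17.6, 42.0 and 26.3 CPM with rIL-4.

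Of 10 markers tested in macrophages, 2 were called higher with rIL-4 and 2 lower, and 2 were called higher with rIL-13. Over all genes, 1900 of 13606 were called in either direction with rIL-4, and 2.53% were called higher with rIL-13. Il4i1 and Batf3, a transcription factor of dendritic cells, were the higher of these markers with both cytokines, and Fscn1 and Siglech were lower with rIL-4. Of 8 tested in microglia, 2 were called higher with rIL-4, Il4i1 and Ccr7, the latter through a filter passed by the rIL-4 libraries alone, and 0 with rIL-13. Over all genes in microglia, 1.33% were called higher with rIL-4 and 0.283% with rIL-13. Clec9a and Xcr1, markers of a dendritic cell subset, had at most 19 and 92 counts in any library. Flt3, the receptor of a dendritic cell growth factor, had 44, 0 and 170 counts in the rIL-4 microglia of mice 8, 9 and 10, and Ccr7 had 417, 186 and 770, the order in which Ccl22 ran. Xcr1 ran in that order too, with 31, 15 and 92 counts. By contrast, Zbtb46 (331, 317 and 131), Batf3 (635, 406 and 273), Fscn1 (1495, 1312 and 1139) and Siglech (4646, 3147 and 1312) were lowest in mouse 10. Ccl17 was instead highest in mouse 8. In the library of rIL-13 mouse 6, the one with Ccl22, Flt3 had 1 count and Ccr7 had 0. The part of dendritic cells in the Ccl17 and Ccl22 levels was not tested.

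Ccl11, the other eotaxin, stood apart from the rest. It had 216, 322 and 69 counts in PBS microglia, 213, 2017 and 697 counts in rIL-13 microglia and 396, 345 and 21 counts in rIL-4 microglia. In macrophages it had 0 counts in the 3 PBS libraries, 1, 4 and 0 with rIL-13 and 0, 4 and 1 with rIL-4. Microglia libraries thus held Ccl11 with every treatment, and the treatment groups overlapped. Against PBS, the log2 fold change in microglia was 2.14 ± 1.04 with rIL-13 (adjusted p = 0.708, edgeR) and 0.34 ± 1.00 with rIL-4 (adjusted p = 0.944). The latter turned negative without rIL-4 mouse 8 (-0.32) or PBS mouse 3.

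Fibroblast and pericyte markers were, like Ccl11, found almost only in microglia libraries. All 10 markers were detected in each PBS and rIL-13 microglia library and at least 9 in each rIL-4 microglia library. Their summed level was between 2598 and 3725 CPM in PBS microglia, between 1305 and 8172 CPM in rIL-13 microglia and between 232 and 1604 CPM in rIL-4 microglia. In macrophages the sum was between 0.307 and 9.87 CPM. The microglia library with the most Ccl11, that of rIL-13 mouse 6 (42.3 CPM), also had the highest sum (8172 CPM). The microglia library with the least Ccl11, that of rIL-4 mouse 10 (0.571 CPM), had the lowest (232 CPM). Between them the order differed. The library of rIL-13 mouse 7 had the second-highest Ccl11 (13.7 CPM) with a sum of 1305 CPM, and that of PBS mouse 3 had 1.59 CPM with a sum of 2808 CPM. Against PBS, the median log2 fold change of the 10 markers was -2.10 with rIL-4, where 1 was called lower, and 0.00 with rIL-13. The sort used CD45, which fibroblasts, pericytes and endothelial cells lack. The part of these cells in the Ccl11 level was not tested. Endothelial markers summed to between 1027 and 3242 CPM in microglia and to between 46.5 and 430 CPM in macrophages. Of 10 eosinophil markers, whose cells are the targets of eotaxins, the summed level in microglia was between 10.5 and 16.2 CPM with PBS, between 4.90 and 23.2 CPM with rIL-13 and between 46.8 and 67.7 CPM with rIL-4. In macrophages it was between 18.9 and 21.6 CPM, 87.7 and 99.5 CPM, and 193 and 295 CPM in the same order. Of these markers Ear2, an RNase gene, was called higher in all 4 comparisons with PBS, and it made up most of the cytokine sums, with a mean of 43.8 CPM in rIL-4 microglia and 251 CPM in rIL-4 macrophages. Siglecf was called lower in macrophages with both cytokines and Alox15 with rIL-4. The granule protein genes Prg2 and Epx had at most 23 and 32 counts in any library. The part of eosinophils in the chemokine levels was not tested.

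**Figure D3:**
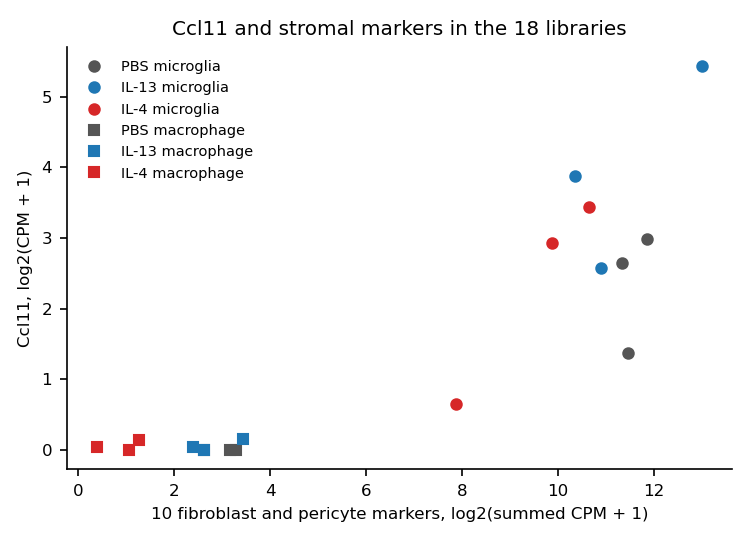
Ccl11 as log2(CPM + 1) on the vertical axis against the summed level of 10 fibroblast and pericyte markers as log2(summed CPM + 1) on the horizontal axis, 1 point per library. The 9 macrophage libraries lie at the lower left, with a marker sum of at most 9.87 CPM and at most 4 counts of Ccl11, and the microglia library of rIL-13 mouse 6 lies at the upper right with 42.3 CPM of Ccl11.

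The second question was whether rIL-4 and rIL-13 differed in their effect on these genes. In microglia, the means of Ccl24, Ccl6 and Ccl9 were 3.82, 2.46 and 2.15 times as high with rIL-4 as with rIL-13, and the groups did not overlap for these 3 of 6 members, against 5.68% of the genes tested. For Ccl9 the ranges nearly touched, at 642.97 and 643.10 CPM, and they overlapped with DESeq2's size factors or with no scaling factor, which left 2 of 6. These alternative scalings were chosen after seeing the data. However, 0 of 6 members passed the edgeR test, against 0.0385% of genes in either direction, while 4 had an unadjusted p under 0.05, as had 1773 of 15566 genes, and DESeq2 called 3, of 743 genes in all. The log2 difference was 1.95 ± 0.34 for Ccl24 (adjusted p = 0.109, edgeR), 1.32 ± 0.27 for Ccl6 (adjusted p = 0.145) and 1.13 ± 0.34 for Ccl9 (adjusted p = 0.324). Mouse 8 had the lowest Ccl24, Ccl8, Ccl6 and Ccl9 of the rIL-4 mice and the highest mitochondrial share. Without mouse 8, Ccl24 passed (2.23, adjusted p = 0.0478, edgeR), but leaving out the lowest mouse widens the difference by itself. Without any other single mouse, Ccl24 did not pass (adjusted p up to 0.219). For Ccl8, the difference was 1.36 ± 0.49 (adjusted p = 0.381), with overlapping groups.

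In macrophages, rIL-4 and rIL-13 libraries overlapped for every member on the main scale, and Ccl6 alone did not overlap with no scaling factor or with factors from the 9 macrophage libraries, whereas 7.03% of genes were higher with rIL-4 in all 3 libraries. The edgeR test called 0 of 6, against 0.25% of genes, 1 member had an unadjusted p under 0.05, as had 1513 of 13606 genes, and DESeq2 called 0. The log2 difference was 0.61 ± 0.53 for Ccl24 (adjusted p = 0.742), 0.42 ± 0.25 for Ccl6 (adjusted p = 0.590), 0.19 ± 0.45 for Ccl8 (adjusted p = 0.928) and -0.12 ± 0.39 for Ccl9 (adjusted p = 0.946). For Ccl22 it was 1.14 ± 0.47, with an adjusted p of 0.408. The SE of up to 0.53 for these genes leaves differences of this size undecided.

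The third question was how the levels of the cell types compared within each treatment, in a model of all 18 libraries. Ccl11 passed the filter through the microglia libraries alone, and Ccl17 almost only through the macrophage libraries, so that both are left out of the counts and given without a test. Of the other 5 members, Ccl6, Ccl9 and Ccl24 were lower in PBS microglia than in macrophages, against 9.9% of 16535 genes called lower and 25.6% called in either direction. Ccl22 had 0 counts in all 3 PBS microglia libraries, so that with PBS it is not counted and is given without a test. With rIL-13, 4 of 5 were lower (Ccl6, Ccl8, Ccl9 and Ccl24), against 29.4% called in either direction. With rIL-4, 3 of 5 were lower (Ccl6, Ccl9 and Ccl24), against 27.6%. Without any one of the PBS mice, Ccl24 no longer passed with PBS, which left Ccl6 and Ccl9. Without rIL-4 mouse 9 or 10, Ccl9 and Ccl24 no longer passed with rIL-4, which left 1, and Ccl9 was also lost without mouse 8. With the mouse as a block, Ccl6, Ccl9 and Ccl24 kept their calls with PBS.

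Ccl6 was higher in macrophages than in microglia of the same animal in 9 of 9 mice. The ratio within a mouse was 3.98 ± 0.52 with PBS, 5.11 ± 0.26 with rIL-13 and 2.84 ± 0.48 with rIL-4 (SD, n = 3). The log2 difference was -1.99 ± 0.29, -2.35 ± 0.29 and -1.48 ± 0.28 in the same order (adjusted p = 7.10e-05, 1.50e-05 and 8.41e-04, edgeR).

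Ccl9 was also higher in macrophages in 9 of 9 mice, with ratios of 4.18 ± 0.31, 4.92 ± 1.504 and 2.24 ± 0.21. Its log2 difference was -2.04 ± 0.42 with PBS (adjusted p = 0.00169, edgeR), -2.37 ± 0.43 with rIL-13 (adjusted p = 4.73e-04) and -1.15 ± 0.41 with rIL-4 (adjusted p = 0.0463). The rIL-4 call was lost with DESeq2's size factors (adjusted p = 0.0609).

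For Ccl24 the ratio was 2.78 ± 0.76, 7.59 ± 3.65 and 3.06 ± 0.69, again with macrophages higher in 9 of 9 mice, although the rIL-4 ranges overlapped between mice. The log2 difference was -1.45 ± 0.52 with PBS (adjusted p = 0.0495, edgeR), -3.01 ± 0.53 with rIL-13 (adjusted p = 3.94e-04) and -1.69 ± 0.50 with rIL-4 (adjusted p = 0.0189). The PBS call was lost with DESeq2's size factors (adjusted p = 0.0537), and the rIL-4 call with the 6 libraries compared alone (adjusted p = 0.0509).

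Ccl8 differed from these 3 genes. It was at a similar low level in both cell types with PBS, at 1.90 ± 0.32 CPM in microglia and 1.63 ± 0.69 CPM in macrophages (log2 difference 0.22 ± 0.58, adjusted p = 0.835, edgeR). With rIL-13 it was lower in microglia, with a log2 difference of -1.61 ± 0.52 (adjusted p = 0.0289), a call that was lost without mouse 5 or 7. With rIL-4 the difference was -0.48 ± 0.51 (adjusted p = 0.536).

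Ccl17 and Ccl22 were at 0 in PBS microglia, which made them at least 1.82-fold and 11.3-fold lower than in PBS macrophages. The bound for Ccl17 is weak, since PBS macrophages had only 5, 5 and 3 counts of it. In rIL-13 mice, Ccl17 was at least 14.5-fold lower in microglia. Ccl22 did not pass with rIL-13 (adjusted p = 0.744, edgeR). Without mouse 6, the rIL-13 microglia libraries held no count of Ccl22, so that no test of that set is given. With rIL-4, the cell types overlapped for both genes, and the adjusted p of Ccl22 was 0.841. Ccl11 ran the other way in 9 of 9 mice and was at least 53.2-fold higher in the microglia of PBS mice, a difference given here without a test.

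**Figure D4:**
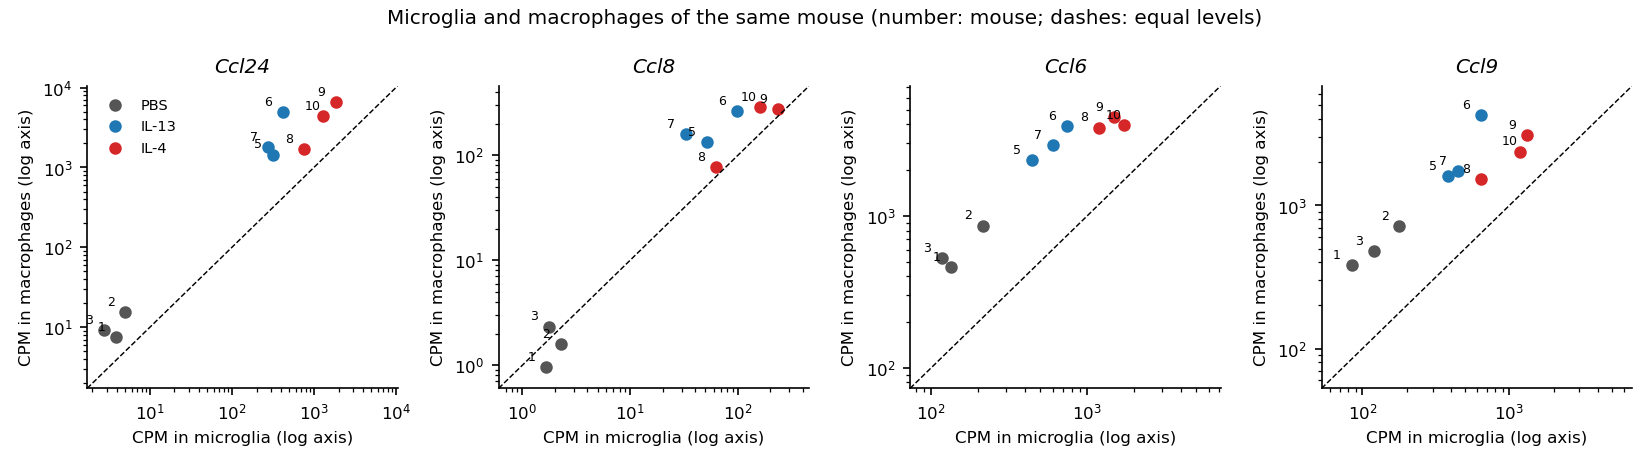
CPM in macrophages (vertical, log axis) against CPM in microglia (horizontal, log axis) of the same mouse for Ccl24, Ccl8, Ccl6 and Ccl9; points are mice, labelled by number, and the dashed line marks equal levels. For Ccl24, Ccl6 and Ccl9 all 9 mice lie above the line, and the PBS mice lie apart from the cytokine mice in both directions.

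A test of the response itself asked whether it differed between the cell types. Ccl11, Ccl17 and Ccl22 are left out here because of the filter. None of the other 4 members passed for rIL-4, against 0.992% of genes, or for rIL-13, against 0.0242%. In edgeR, 0 of 4 had an unadjusted p under 0.05 for rIL-4 and 2 of 4 for rIL-13 (Ccl8 and Ccl24), as had 2050 and 964 of 16535 genes, and DESeq2 called 0 members for either. For Ccl24, the response to rIL-13 in microglia differed from that in macrophages by -1.56 ± 0.71 on the log2 scale (unadjusted p = 0.0436, adjusted p = 0.808, edgeR), and that to rIL-4 differed by -0.24 ± 0.71 (adjusted p = 0.993). For Ccl8, the rIL-13 response differed by -1.84 ± 0.78 (adjusted p = 0.766). For Ccl6 and Ccl9, the rIL-4 responses differed by 0.51 ± 0.39 and 0.89 ± 0.57 (adjusted p = 0.705 and 0.610).

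Within a treatment, the highest mouse was often the same in both cell types. For Ccl24 and Ccl9 it was mouse 2 with PBS, mouse 6 with rIL-13 and mouse 9 with rIL-4. Over Ccl6, Ccl8, Ccl9 and Ccl24 and the 3 treatments, the same mouse was highest in both cell types in 9 of 12 cases and lowest in 8 of 12. Mouse 8 was the lowest rIL-4 mouse for all 4 genes in both cell types. The 4 genes come from the same libraries, so that the 12 cases are not independent.

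To compare levels between genes, CPM was divided by the exon length in kb. The sum over the 7 genes rose from 139 ± 46.3 CPM per kb in PBS microglia to 892 ± 253 with rIL-13 and 2467 ± 799.5 with rIL-4 (SD, n = 3). In macrophages it rose from 527 ± 179 to 5005 ± 2536 and 6696 ± 2511. The make-up of this sum also changed. Ccl6 made up 62.0 ± 3.70% in PBS microglia and 34.6 ± 7.87% in rIL-4 microglia, and Ccl9 fell from 30.1 ± 5.47% to 13.9 ± 0.68%. Ccl24 made up 2.20 ± 0.41% in PBS microglia, 29.8 ± 3.52% with rIL-13 and 39.7 ± 4.72% with rIL-4. In macrophages, the Ccl24 share was 1.55 ± 0.07% with PBS, 39.7 ± 7.49% with rIL-13 and 45.4 ± 12.0% with rIL-4.

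**Figure D5:**
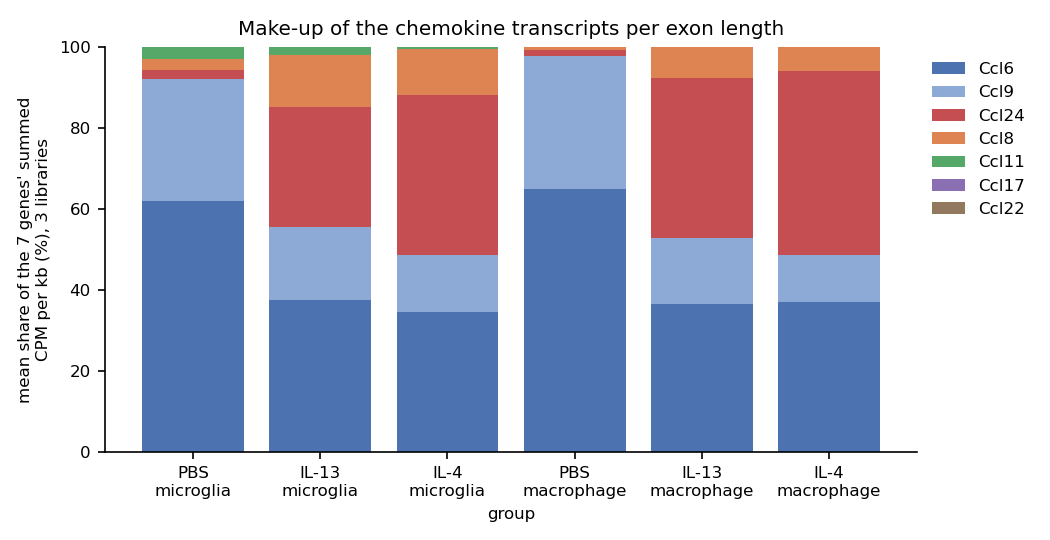
Mean share (%, 3 libraries per group) of each gene in the summed CPM per kb of the 7 genes, stacked, by treatment and cell type. Ccl6 and Ccl9 fill most of the PBS bars, and Ccl24 grows from 2.20% to 39.7% in microglia and from 1.55% to 45.4% in macrophages with rIL-4; Ccl17 and Ccl22 are too low to see.

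Among all genes with a count, ordered by CPM per kb, Ccl24 moved from rank 6300 in PBS microglia to rank 126 with rIL-13 and rank 35 with rIL-4. In macrophages it moved from rank 3431 to ranks 15 and 13. Ccl6 ranked 371 in PBS microglia and 43 with rIL-4, and 115 and 16 in macrophages. In rIL-4 microglia the order was Ccl24 (1000 ± 421 CPM per kb), Ccl6 (815 ± 149), Ccl9 (346 ± 119), Ccl8 (299 ± 171), Ccl11 (5.26 ± 4.37), Ccl17 (1.42 ± 1.67) and Ccl22 (0.697 ± 0.878). The ranges of Ccl24 and Ccl6 overlapped, as did those of Ccl9 and Ccl8, and those of the last 3 genes. In rIL-4 macrophages the order was Ccl24 (3236 ± 1868 CPM per kb), Ccl6 (2271 ± 196), Ccl9 (768 ± 258), Ccl8 (417 ± 230), Ccl17 (2.29 ± 1.05), Ccl22 (1.08 ± 0.55) and Ccl11 (0.0400 ± 0.0503). There, Ccl24 overlapped with Ccl6, Ccl9 with Ccl8, and Ccl17 with Ccl22.

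The other CC chemokines are given for comparison. Of 14 listed, 7 were tested in each cell type and 3 were left out because their symbols have several rows. None was called higher with either cytokine in either cell type. Ccl4, an inflammatory chemokine, fell by 1.43 ± 0.27 on the log2 scale with rIL-4 in microglia (adjusted p = 0.0298, edgeR). With rIL-13, microglial Ccl4 fell by 2.44 ± 0.28 (adjusted p = 0.00778). Ccl3, its close relative, fell by 2.36 ± 0.38 in rIL-13 microglia (adjusted p = 0.0408) and fell by 1.94 ± 0.43 in rIL-4 macrophages (adjusted p = 0.0147). In rIL-4 microglia, 5 of the 7 tested had a positive log2 fold change. The median of the 7 was 1.18 with rIL-4 in microglia and -0.40 in macrophages, against -0.06 and 0.02 over all genes. For Ccl7, which lies beside Ccl11, the log2 fold change in rIL-4 microglia was 2.68 ± 0.71 (adjusted p = 0.101), and its mean was 40.0 CPM with PBS and 251 CPM with rIL-4. The difference between this list and the 7 genes was not tested.

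Of the main receptors named above for the 7 chemokines, Ccr1 alone was abundant. Ccr1, the receptor of CCL6 and CCL9, had a mean of 70.0 CPM in PBS, 78.5 CPM in rIL-13 and 115 CPM in rIL-4 microglia. In macrophages it had 378, 575 and 588 CPM. Ccr3 was at most 0.762 CPM in any library, and Ccr4 and Ccr8 never exceeded 1 count. Ackr1, an atypical receptor of venular endothelium that binds many chemokines without signalling, had a mean of 65.1 CPM in PBS, 179 CPM in rIL-13 and 52.2 CPM in rIL-4 microglia, and at most 1.41 CPM in any macrophage library. Of 14 receptor genes, 8 were tested in microglia and 7 in macrophages. In the 4 comparisons with PBS, none was called apart from Ccr7 in rIL-4 microglia, which passed the filter through the rIL-4 libraries alone. Ccr7, which guides cells to lymph nodes, had no count in PBS microglia, at most 4 counts in rIL-13 microglia and a mean of 11.6 CPM in rIL-4 microglia.

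Genes of the IL-4 and IL-13 signalling pathway changed in part. Of 16 tested in microglia, Socs1, a feedback inhibitor of cytokine signalling, rose by 3.90 ± 0.38 on the log2 scale with rIL-4 (adjusted p = 0.00138, edgeR) and by 2.70 ± 0.36 with rIL-13 (adjusted p = 0.0148), and Socs3 fell by 0.89 ± 0.17 with rIL-4 (adjusted p = 0.0282). Of 15 tested in macrophages, 3 rose with each cytokine, Socs1, Cish, another feedback inhibitor, and Jak2, a receptor kinase. Over all genes, 6.77% rose with rIL-4 and 2.53% with rIL-13 in macrophages, and 1.33% and 0.283% in microglia. With rIL-4, Cish rose by 4.80 ± 0.54 and Jak2 by 2.56 ± 0.26 (adjusted p = 4.46e-04 and 2.47e-04), while Il13ra1, a receptor chain, fell by 0.64 ± 0.17 (adjusted p = 0.0329). Ptpn6, a phosphatase gene with the smallest change of those called, named after its values were seen, fell by 0.55 ± 0.11 (adjusted p = 0.0105). The median log2 fold change of this list was 0.22 in rIL-4 microglia and 0.07 in rIL-4 macrophages.

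Alternative activation genes rose widely. In microglia, 10 of 19 tested rose with rIL-4, against 1.33% of genes, and 5 of 19 with rIL-13, against 0.283%. The medians were 2.71 and 1.92 on the log2 scale, against -0.06 and 0.00 over all genes. In macrophages, 18 of 20 rose with rIL-4, against 6.77% of genes, and 13 with rIL-13, against 2.53%. There, 2 fell with rIL-4 and 1 with rIL-13, and the medians were 2.74 and 2.46. These counts include genes with hardly any counts with PBS, among them Retnla and Chil4 in both cell types and Pdcd1lg2 in microglia, which passed the filter through the cytokine libraries. Chil3, a chitinase-like protein gene, rose by 7.12 ± 0.67 in rIL-4 microglia and by 5.41 ± 0.62 in rIL-13 microglia (adjusted p = 0.00127 and 0.00778, edgeR). Retnla, which encodes a secreted resistin-like protein, went from a mean of 0.0796 CPM in PBS microglia to 88.7 CPM with rIL-13 and 320 CPM with rIL-4. Pdcd1lg2, which encodes the inhibitory ligand PD-L2, went from no count to 4.20 and 24.3 CPM in the same order. Chil4, another chitinase-like gene, reached 11.1 CPM from no count in rIL-4 microglia. Mgl2, a lectin gene, rose by 6.74 ± 0.39 in rIL-4 macrophages and by 5.80 ± 0.38 in rIL-13 macrophages (adjusted p = 9.69e-06 and 3.68e-05).

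Finally, the genes whose log2 CPM was most like that of each member over the 18 libraries were sought by Pearson correlation, given here as a description. The libraries share cell type and treatment, which sets much of r. Ccl6 and Ccl9 were closest to Srgn, a proteoglycan gene of myeloid granules, with r of 0.985 and 0.983, and to each other with r of 0.978. Ccl8 and Ccl24 were closest to Msx3, a homeobox gene, with r of 0.989 and 0.983, and to each other with r of 0.979. The gene closest to Ccl11 was Slc25a4, a mitochondrial carrier gene, with r of 0.972, that closest to Ccl22 was Fcrla, with r of 0.977, and that closest to Ccl17 was Myo3b, with r of 0.906. Over the 9 libraries of one cell type, the names changed. Of the 3 closest genes, Ccl24 kept 2 in microglia and 2 in macrophages, and Ccl8 kept 2 and 1. Ccl9 kept 2 in microglia and 0 in macrophages, Ccl6 1 and 0, Ccl22 1 and 0, and Ccl11 and Ccl17 kept 0 in both.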

How the data were processed

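Libraries were made by SMART-seq2 with oligo-dT priming and PCR amplification, without molecular identifiers or strand information, and sequenced in paired-end reads of 76 bases. Per the labels, reads were mapped to GRCm38 with STAR 2.5.3a, and the authors deposited expected counts per gene from RSEM 1.3.0 in whole numbers and unscaled. A read that fits more than 1 gene is shared out among them by RSEM. Counts were tested with edgeR 4.0.16 (TMM, filterByExpr, quasi-likelihood F test, Benjamini-Hochberg adjustment) in R 4.3.3, over the 9 libraries of a cell type or over all 18, with an adjusted p threshold of 0.05. Standard errors were derived from the F statistic. CPM used TMM factors over 18 libraries, and lower bounds used a level of 3 counts per library, which covers counting error only. Alternatives were DESeq2 1.42.0, its size factors, other filters, other sets of libraries, the mouse as a block and leaving out each mouse. Labels tie both cell types to 1 animal, and deviations of the same mouse had correlations between 0.0633 and 0.263 over 10191 genes. Gene positions came from GENCODE M21, which matched 50690 of 53465 identifiers, and promoters from RefSeq. The 7 members are all described, with the 3 genes most like each by correlation and, from each list, up to 4 called genes with the largest change. Members and lists were chosen with earlier results of these data known. Ccl19, Ccl21a and Ccl27a, with several rows, were left out.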

Additional observations from a re-analysis of the deposited data

How the results depend on the processing

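Of 731 alternative values for single members, 661 kept their direction and their side of the threshold, 46 lost their call, 10 gained one, 13 changed sign and 1 fell to 0, these 14 on leaving out a mouse and none of them called. Counts here are over all members that passed the filter. The mouse block moved no count of members called by over 1.5 times: it gave 4 for microglia against macrophages with PBS, 5 with rIL-13 and 4 with rIL-4, and ended 3 calls, of Ccl17 with PBS and rIL-13 and of Ccl22 with PBS. On leaving out 1 mouse, the count of members called ranged between 1 and 3 for rIL-13 against PBS in microglia, 3 and 4 in macrophages, 0 and 1 for rIL-4 against rIL-13 in microglia, and 2 and 3 for microglia against macrophages with rIL-4, and was 3 for each mouse left out with PBS. For rIL-4 against rIL-13 in microglia, DESeq2 called 3 members and the fit of all 18 libraries 1. The cause was not tested. Results that changed sign ranged, on leaving out 1 mouse, between -0.32 and 0.87 for Ccl11 and between 0 and 8.32 for Ccl22 (rIL-4 and rIL-13 against PBS microglia), and between -0.31 and 9.17 for Ccl22 (rIL-4 against rIL-13 microglia). For rIL-4 against rIL-13 macrophages the ranges were -0.076 to 0.60 for Ccl8, -0.38 to 0.47 for Ccl9 and -0.025 to 0.88 for Ccl17. For microglia against macrophages with rIL-4 they were -2.11 to 0.26 for Ccl17 and -2.74 to 0.12 for Ccl22, and for the cell type difference in the rIL-13 response -0.48 to 0.025 for Ccl9 and -0.61 to 7.76 for Ccl22. Fitted values of Ccl22, with groups at 0, depend on the prior count. Over all genes and alternatives, the number called ranged between 75 and 1479 (345 as reported) for rIL-4 and 22 and 404 (57) for rIL-13 against PBS in microglia, 1041 and 2576 (1900) and 199 and 1112 (570) in macrophages, 0 and 743 (6) and 1 and 399 (34) for rIL-4 against rIL-13, 2418 and 6014 (4240), 3153 and 5758 (4868) and 3118 and 5532 (4569) for microglia against macrophages, and 18 and 777 (164) and 0 and 183 (4) for the cell type differences. DESeq2 gave the highest value except for microglia against macrophages with PBS. Under 2 other scalings, 83 of 84 mean levels moved by less than 1 SD, and without scaling factors Ccl6 in rIL-4 macrophages was 3698 CPM. Counts near 3 per library limit Ccl17, Ccl22 and, in macrophages, Ccl11.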
